A study of Mus musculus with 9 samples.

Results

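Immunity-related GTPases (IRGs) are interferon-inducible proteins that defend cells from the inside, and 8 genes of this family were followed in intestinal epithelial cells (IECs) of mice in which natural killer T (NKT) cells had been activated. The genes were Irgm1, Irgm2, Igtp, Iigp1, Tgtp1, Tgtp2, Ifi47 and F830016B08Rik, taken by symbol from the 29288 genes of the count table, and all 8 passed the filter on low counts that left 18933 genes for testing. They were chosen by their RNA levels, which differed between αGalCer-treated and control mice at 18 h. Their values in that comparison, and in the comparison of 72 h with 18 h that uses the same 18 h libraries, are therefore given as a description, and counts of calls in them are printed only beside the share of all genes called.

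The 9 libraries came from 9 wild-type female C57BL/6J mice, aged 7 to 10 weeks. All carried the same genotype, and no transgene or deletion was involved. Control mice (n = 3) received PBS intraperitoneally and were sampled 18 h later. Treated mice received α-galactosylceramide (αGalCer) at 2 µg each and were sampled after 18 h (18h-αGal, n = 3) or 72 h (72h-αGal, n = 3). This lipid antigen is shown by CD1d to the receptor of NKT cells, which it activates. No PBS mice were sampled at 72 h, so time after injection and treatment cannot be told apart in that group. Crypt cells of the proximal small intestine were sorted as EpCAM+ and negative for CD45, CD31 and Ter119, and each library holds bulk RNA, in which fewer cells of a type and less RNA per cell cannot be told apart.

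IRG proteins bind and hydrolyse GTP and are made in many mouse cell types after interferon-γ (IFN-γ) reaches its receptor. The effector members load onto vacuoles that hold intracellular pathogens and disrupt the vacuole membrane, with help from part of the autophagy machinery. The regulator members sit on the cell's own membranes, where they hold effectors in an inactive state. Regulators (Irgm1, Irgm2 and Igtp, also called Irgm3) and effectors (Iigp1, or Irga6; Tgtp1 and Tgtp2, or Irgb6; Ifi47, or Irgd) are told apart by a residue in the nucleotide-binding loop. In place of the lysine of other GTPases, the regulators carry a methionine.

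That difference was read from the coding sequences of the canonical transcripts in GENCODE vM39 (GRCm39). The stretches below are shown because they divide the family by role. Each covers the 8 codons of the loop on the coding strand, and capitals mark the codon for the methionine or lysine.
Igtp: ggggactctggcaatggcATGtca
Irgm1: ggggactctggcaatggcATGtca
Irgm2: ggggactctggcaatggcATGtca
Tgtp1: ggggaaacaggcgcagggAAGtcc
Tgtp2: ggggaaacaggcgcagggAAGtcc
Ifi47: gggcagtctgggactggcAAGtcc
The 3 regulators were identical over this stretch and encoded methionine. The other 5 genes encoded lysine there, Iigp1 and F830016B08Rik included, which places F830016B08Rik with the effectors by sequence alone. Between whole coding sequences, Igtp and Irgm2 were 75.6% identical over 1160 aligned bases, and Tgtp1 and Tgtp2 were 99.7% identical over 1245 bases. Reads from the Tgtp pair are therefore hard to assign. Of all 50-base words in their annotated transcripts, 82.6% for Tgtp1 and 86.6% for Tgtp2 also occurred in transcripts of another gene, against 0.27% to 10.2% for the other 6 members. Values of Tgtp1 and Tgtp2 are uncertain as separate genes and are also given as a sum.

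Upstream sequence was available for 6 members in the RefSeq promoter table (GRCm38.p6). Promoters of interferon-inducible genes often hold the gamma-activated site (GAS, searched as TTCNNNGAA) and, for factors such as IRF1, the interferon-stimulated response element (ISRE, searched as GAAA, any 2 bases and GAAA again). Both strands of the 250 bases before each annotated start were searched, and GAS reads the same on both. The windows below are shown because the same arrangement recurs in them. They are written on the strand of the gene, and capitals mark GAS and ISRE letters.
Igtp: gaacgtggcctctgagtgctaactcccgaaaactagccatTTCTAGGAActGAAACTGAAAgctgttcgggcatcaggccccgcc
Irgm2: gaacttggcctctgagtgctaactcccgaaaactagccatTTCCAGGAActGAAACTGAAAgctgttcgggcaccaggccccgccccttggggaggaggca
Tgtp1: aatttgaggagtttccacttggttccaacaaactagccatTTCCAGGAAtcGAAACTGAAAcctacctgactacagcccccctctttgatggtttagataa
Tgtp2: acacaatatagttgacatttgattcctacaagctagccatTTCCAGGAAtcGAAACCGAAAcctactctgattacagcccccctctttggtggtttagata
Irgm1: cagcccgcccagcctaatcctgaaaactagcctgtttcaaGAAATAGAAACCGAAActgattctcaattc
The windows are chr11:58199471-58199555 (plus strand) for Igtp, chr11:58214862-58214962 (plus) for Irgm2, chr11:48992274-48992374 (minus) for Tgtp1, chr11:49064233-49064333 (minus) for Tgtp2 and chr11:48871421-48871490 (minus) for Irgm1. In Igtp, Irgm2, Tgtp1 and Tgtp2 a GAS match was followed after 2 bases by an ISRE match, beginning 45, 75, 88 and 81 bases before the start, respectively. Irgm1 held 2 overlapping ISRE matches and no GAS match. Ifi47 held neither, which says only that these letters were not in this window.

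Among the 32851 promoters of the table, 7.02% held GAS letters, 2.977% held ISRE letters and 0.332% held both in any arrangement. The joined arrangement of a GAS match, any 2 bases and an ISRE match occurred in 5 promoters, or 0.0152%. These were the promoters of the 4 members and that of Gm12185. Because the genes arose from each other by duplication, their promoters are related sequences and do not count as separate occurrences. A match of letters describes the sequence and does not show that a factor binds there.

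**Figure D1:**
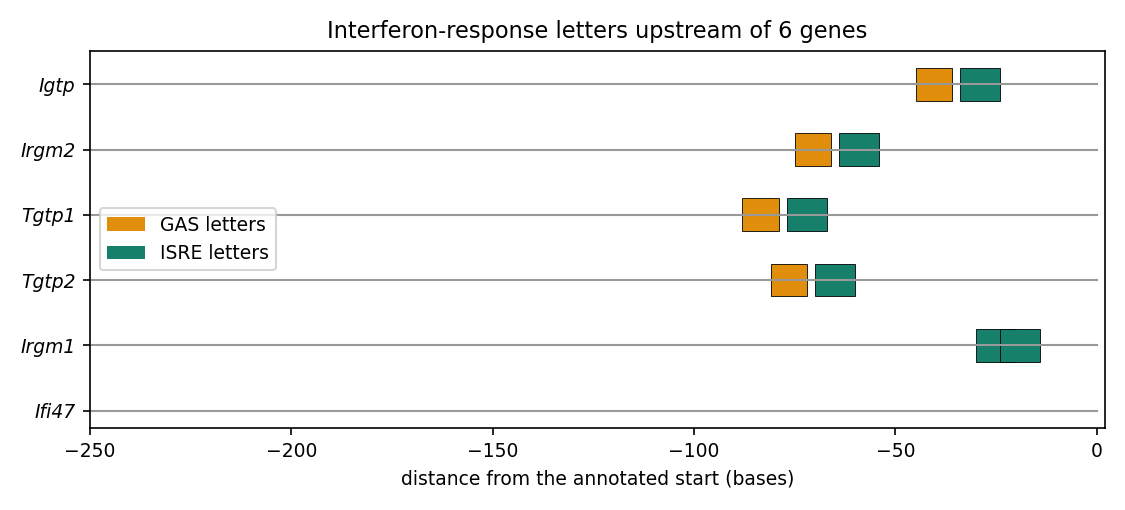
Positions of GAS letters (orange) and ISRE letters (green) in the 250 bases before the annotated start of 6 genes, with distance from the start in bases on the horizontal axis. In Igtp, Irgm2, Tgtp1 and Tgtp2 the green box follows the orange box after 2 bases, Irgm1 has 2 overlapping green boxes, and Ifi47 has none.

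The genes lie in 3 clusters of the GRCm39 annotation. On chromosome 11, Irgm1 (chr11:48752795-48763164, minus strand), Tgtp1 (chr11:48876154-48884999, minus), Tgtp2 (chr11:48948021-48955033, minus) and Ifi47 (chr11:48967412-48987813, plus) lie close together. Igtp (chr11:58089840-58098417, plus) and Irgm2 (chr11:58090444-58113615, plus) overlap elsewhere on that chromosome and share 162 bases of exon on the same strand. Iigp1 (chr18:60506680-60525706, plus) and F830016B08Rik (chr18:60426445-60438660, plus) are neighbours on chromosome 18. Tgtp1 shares 317 exonic bases with Gm12185, another IRG gene on the same strand, and Ifi47 shares 111 exonic bases with the olfactory receptor gene Or2v1.

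Library totals ranged from 8887861 counts (control mouse 3) to 32722293 counts (control mouse 1). Epithelial markers made up 0.850% to 0.939% of counts in controls, 0.763% to 0.837% in 18h-αGal mice and 0.822% to 0.931% in 72h-αGal mice, so that the 18 h range lay below that of controls. Of these 12 markers, 6 had a positive and 6 a negative log2 difference at 18 h, and edgeR called 0. The most abundant in controls was Olfm4, with mean normalised counts (raw counts divided by a size factor of the library) of 38098 in controls and 15916 at 18 h. Epcam stood between 880 and 1155 CPM, the count relative to the library total. The summed level of the 16 leukocyte markers in the table was 21.5 to 33.1 CPM in controls, 22.3 to 38.3 CPM in 18h-αGal mice and 40.4 to 52.8 CPM in 72h-αGal mice. Of these 16 markers, 5 to 7 were at 0 in each 18h-αGal library and 5 to 6 in each control library. Thus the leukocyte sums at 18 h overlapped those of controls, whereas those at 72 h lay above both. Of the 9 leukocyte markers tested at 72 h against control, 5 had a positive and 4 a negative log2 difference, and 0 were called by edgeR. The 1 with an unadjusted p under 0.05 was Cd68, a macrophage marker (0.75 ± 0.26, edgeR adjusted p = 0.810). Cd68 made up most of the leukocyte sums. Its mean normalised counts were 365 in controls and 612 at 72 h, against 45.1 and 38.9 for Itgam, the next most abundant. Other myeloid markers did not all share its direction, with log2 differences of 2.47 for Itgax, 0.03 for Csf1r and -0.17 for Itgam. Adgre1 and Tyrobp were at 0 in every 72h-αGal library. Several lymphocyte markers did not pass the filter and were not tested. Among them, Cd3e was at 0 in every control and at 24.3, 8.07 and 1.47 normalised counts at 72 h. Control and 72 h means were 2.53 and 18.4 for Gzmb and 3.56 and 9.58 for Gzma. They were 0 and 2.02 for Nkg7 and 3.76 and 0 for Cd4. The tested lymphocyte markers Cd8a (9.19 and 8.0) and Cd79a (33.6 and 26.9) had lower means at 72 h. Endothelial, erythroid and stromal markers summed to 3.45 to 4.76 CPM in controls, 0.974 to 2.05 CPM at 18 h and 1.97 to 2.19 CPM at 72 h. The part of these marker differences in the results was not tested.

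The IRG genes were far more abundant 18 h after αGalCer than in controls and overlapped controls at 72 h. Together the 8 genes took 0.00862% to 0.0195% of all counts in control mice, 0.126% to 0.155% in 18h-αGal mice and 0.00939% to 0.0107% in 72h-αGal mice. In each of the 8 genes, the lowest 18h-αGal mouse lay above the highest control mouse. The median log2 fold change over the members was 4.97, against -0.03 over all genes tested. All 8 members were called higher by edgeR at an adjusted p under 0.05, a call that 3.27% of all genes received, and counts did not overlap in the higher direction for 11.5% of all genes. Nothing can be read from that count, since this contrast chose the genes.

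**Figure D2:**
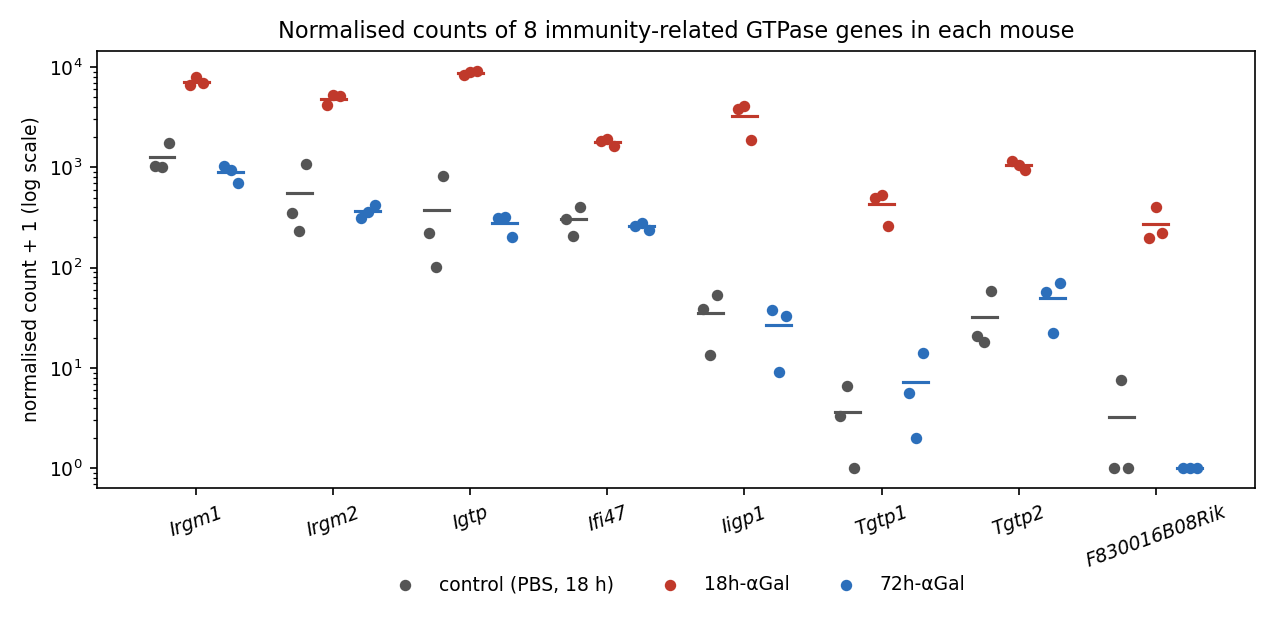
Normalised counts plus 1 (log scale) of the 8 genes, with 1 point for each mouse, a horizontal bar at the group mean, and colours for control (grey), 18h-αGal (red) and 72h-αGal (blue). Every red point lies above every grey and blue point of the same gene, and grey and blue points overlap.

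The regulators are given here before the effectors. Values are normalised counts, the raw count divided by a size factor of the library, in mice 1, 2 and 3 of each group. Igtp, a regulator found on the endoplasmic reticulum, stood at 220, 99.7 and 811 in controls, at 8409, 8821 and 9198 in 18h-αGal mice and at 315, 320 and 201 in 72h-αGal mice. The 18h-αGal mice were close to each other, while the highest control was 8.13-fold above the lowest. The 18h-αGal mean was 23.4-fold the control mean, and the fitted log2 difference was 4.65 ± 0.78 (SE).

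Irgm1, the regulator needed for survival of many intracellular infections in mice, stood at 1038, 1001 and 1740 in controls, 6623, 7967 and 6856 at 18 h and 1036, 935 and 701 at 72 h. It had the smallest fold difference of the 8 genes at 18 h, 5.67-fold (log2 2.52 ± 0.21), and its 18h-αGal mice lay far above every control. Irgm2, a regulator of the Golgi, stood at 348, 232 and 1067 in controls, 4177, 5246 and 5083 at 18 h and 312, 361 and 422 at 72 h. Its 18h-αGal mean was 8.81-fold the control mean (log2 3.20 ± 0.56), and as for Igtp the control spread came from mouse 3, which was 4.61-fold above mouse 2.

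Among the effectors, Iigp1, the best studied loader of the Toxoplasma vacuole, stood at 37.6, 12.3 and 52.3 in controls, 3795, 4045 and 1876 at 18 h and 37.1, 8.07 and 32.4 at 72 h. The third 18h-αGal mouse was lower than the other two, yet still far above every control. The difference between means was 95.05-fold (log2 6.69 ± 0.65). Ifi47 stood at 308, 206 and 402 in controls, 1809, 1910 and 1625 at 18 h and 259, 277 and 237 at 72 h. Its 5.84-fold difference (log2 2.57 ± 0.21) was close to that of Irgm1.

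For the near-identical effectors Tgtp1 and Tgtp2, first described as T cell-specific GTPases, few reads were found in controls. Tgtp1 stood at 2.35, 5.70 and 0 in controls, 492, 530 and 262 at 18 h and 4.63, 1.01 and 13.2 at 72 h, a 160-fold difference between 18h-αGal and control means. Tgtp2 stood at 19.97, 17.1 and 57.1 in controls, 1161, 1059 and 933 at 18 h and 56.8, 21.2 and 69.2 at 72 h, a 33.5-fold difference. The fitted log2 differences were 7.05 ± 0.70 and 5.28 ± 0.48, and 5.63 when the counts of the pair were summed. Without control mouse 2, the difference of Tgtp1 became 7.80. How the reads were divided between the pair was not tested.

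F830016B08Rik, an IRG gene that is still named by its clone, was close to silent outside the 18 h group. It stood at 0, 6.64 and 0 in controls, where the middle value came from 7 reads, at 197, 405 and 219 in 18h-αGal mice, and at 0 in all 3 72h-αGal mice. The fitted log2 difference at 18 h was 6.82 ± 0.88 and rests on those 7 reads. It was 5.93 without control mouse 1, and without control mouse 2 the remaining controls were at 0, so that no fold can be given. Against a floor of 3 counts for each library, the 72h-αGal level was at least 94.4-fold lower than the 18h-αGal level.

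Mouse 3 was the highest of the controls for 6 of the 8 genes and mouse 2 the lowest for 6 of 8. Control mouse 3 was also the library with the fewest counts, and its part in the results was not tested beyond leaving it out. Without it, the log2 difference at 18 h became 5.76 for Igtp, 4.05 for Irgm2 and 2.81 for Irgm1, and the median over the members became 5.78. Counts of a member relative to another member of the same library do not depend on library scaling. Igtp relative to Irgm1 was 0.212, 0.0995 and 0.466 in controls, 1.27, 1.11 and 1.34 at 18 h and 0.304, 0.342 and 0.286 at 72 h. The ratios of these 2 regulators in 18h-αGal mice did not overlap those of either other group. Iigp1 relative to Ifi47 was 0.122, 0.0599 and 0.130 in controls, 2.10, 2.12 and 1.15 at 18 h and 0.143, 0.0291 and 0.137 at 72 h, again without overlap at 18 h. Only these pairs were computed, each setting a gene with a larger difference at 18 h over a gene with a smaller. Since 18 h levels chose the genes, the lack of overlap is a description and no separate result.

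To compare levels between genes, length-scaled levels (RPKM, the CPM divided by the exon length in kilobases) were computed from the raw counts. In controls the order of mean RPKM was Irgm1 (10.02 ± 2.55, SD), Irgm2 (7.24 ± 5.47), Ifi47 (5.42 ± 1.38) and Igtp (4.04 ± 3.85), and neighbours among these 4 overlapped between mice. Tgtp2 (0.530), Iigp1 (0.267), Tgtp1 (0.0442) and F830016B08Rik (0.0206) followed at lower RPKM.

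At 18 h the order of RPKM differed. Igtp led with 97.6 ± 2.46, above Irgm2 (65.2 ± 7.46) and Irgm1 (56.9 ± 6.81) in every mouse, while Irgm2 and Irgm1 overlapped. Ifi47 (31.7 ± 3.59), Iigp1 (25.9 ± 10.1) and Tgtp2 (18.1 ± 2.51) came next with overlapping neighbours, then Tgtp1 (6.67 ± 2.43) and F830016B08Rik (2.37 ± 1.03). With counts of Tgtp1 and Tgtp2 summed over their mean exon length, the pair stood at 24.2 ± 4.80 and overlapped Iigp1. The summed pair stood at 0.548 in controls and 0.969 at 72 h. With the longest annotated transcript as length, Irgm1 (94.3) lay above Irgm2 (68.2) at 18 h and Igtp (120.5) still led, while Iigp1 (50.7) lay above Ifi47 (46.8). Summed over the 8 genes, RPKM was 27.6 in controls (17.7 to 42.9 between mice), 304 in 18h-αGal mice (279 to 335) and 22.1 in 72h-αGal mice (21.5 to 23.0).

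Of that sum, Igtp made up 12.6% in controls, 32.2% at 18 h and 14.7% at 72 h. Irgm1 went the other way, with 39.04%, 18.7% and 33.8%, and Iigp1 made up 0.964%, 8.39% and 0.991%. The ranges of Igtp and Irgm1 shares at 18 h (29.8% to 35.1% and 17.9% to 19.3%) did not overlap those of controls (6.74% to 19.6% and 30.2% to 48.6%). These shares rest on the same 18 h values and are also a description. At 72 h the order of mean RPKM was again that of controls, from Irgm1 (7.48 ± 1.23) to F830016B08Rik (0).

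**Figure D3:**
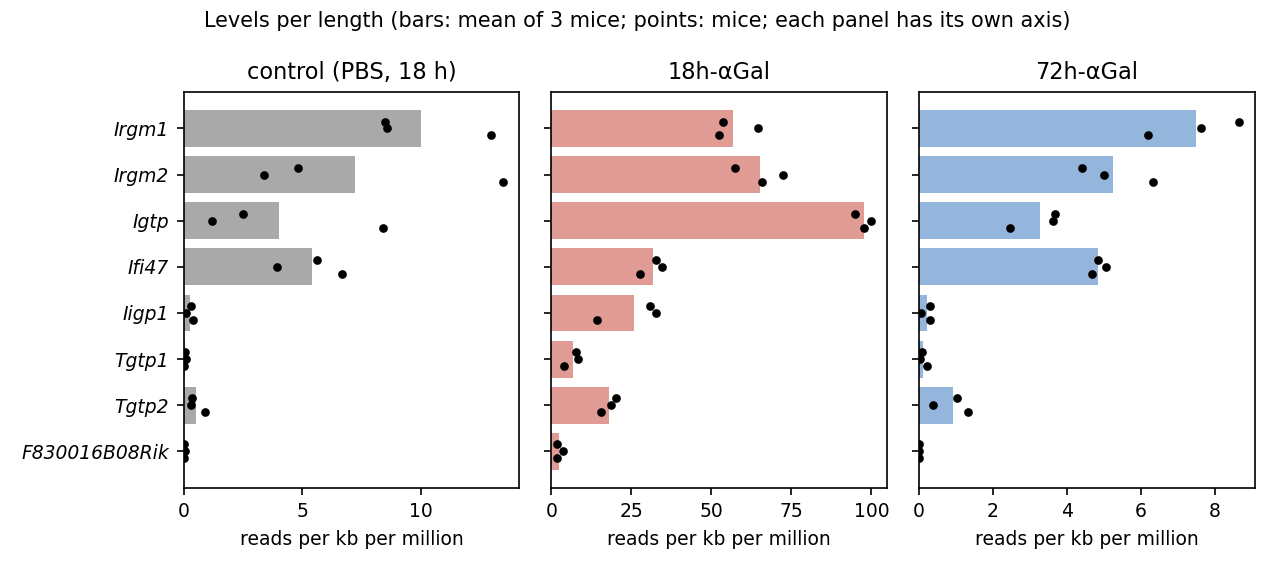
Levels per length (RPKM) of the 8 genes in control, 18h-αGal and 72h-αGal mice, with bars for the mean of 3 mice, points for the mice, and a separate horizontal axis in each panel that starts at 0. Irgm1 has the longest bar in controls and at 72 h, and Igtp has the longest bar at 18 h, where it reaches 97.6.

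The 72h-αGal libraries did not take part in the choice of the genes, although the controls they are set against did. At 72 h, 0 of the 8 members were called by edgeR at an adjusted p under 0.05, as were 0.0264% of all genes, and 1 member had an unadjusted p under 0.05, as did 5.94% of all genes. DESeq2, which called 0.158% of all genes, also called 0 members, with 1 at an unadjusted p under 0.05. Values of 72h-αGal and control mice overlapped for all 8 genes, whereas 12.7% of all genes did not overlap. Tgtp1 and F830016B08Rik passed the filter on low counts only through the 18h-αGal libraries, and the counts of calls therefore rest on the other 6 members. When only control and 72h-αGal libraries were fitted, 6 members were tested and 0 were called, with 0 at an unadjusted p under 0.05.

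Irgm1 was the member with the low unadjusted p. Its log2 difference was -0.48 ± 0.20 (95% interval -0.91 to -0.04, edgeR unadjusted p = 0.0345, adjusted p = 0.826), and without control mouse 3 it was -0.19. For Ifi47 the difference was -0.21 ± 0.20 (interval -0.64 to 0.22, edgeR adjusted p = 0.935), the narrowest interval among the effectors. Wider intervals left room for larger differences in Igtp (-0.34, -2.05 to 1.37, edgeR adjusted p = 0.981), Irgm2 (-0.52, -1.80 to 0.77, adjusted p = 0.947) and Iigp1 (-0.27, -1.89 to 1.36, adjusted p = 0.985). For Tgtp2 the difference was 0.89 (-0.15 to 1.92, edgeR adjusted p = 0.870). Tgtp1 had raw counts of 4, 6 and 0 in controls and 4, 1 and 18 at 72 h, too few to give a direction. F830016B08Rik was at or near 0 in both groups, and no fold is given.

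Without control mouse 3 the directions of Igtp (0.78), Irgm2 (0.34) and Ifi47 (0.010) turned positive at 72 h, and Igtp and Tgtp2 had an unadjusted p under 0.05 (edgeR, 0.0394 and 0.0029), with 0 members called. Leukocyte marker sums, which were higher at 72 h, are given above, and their part in these values was not tested.

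**Figure D4:**
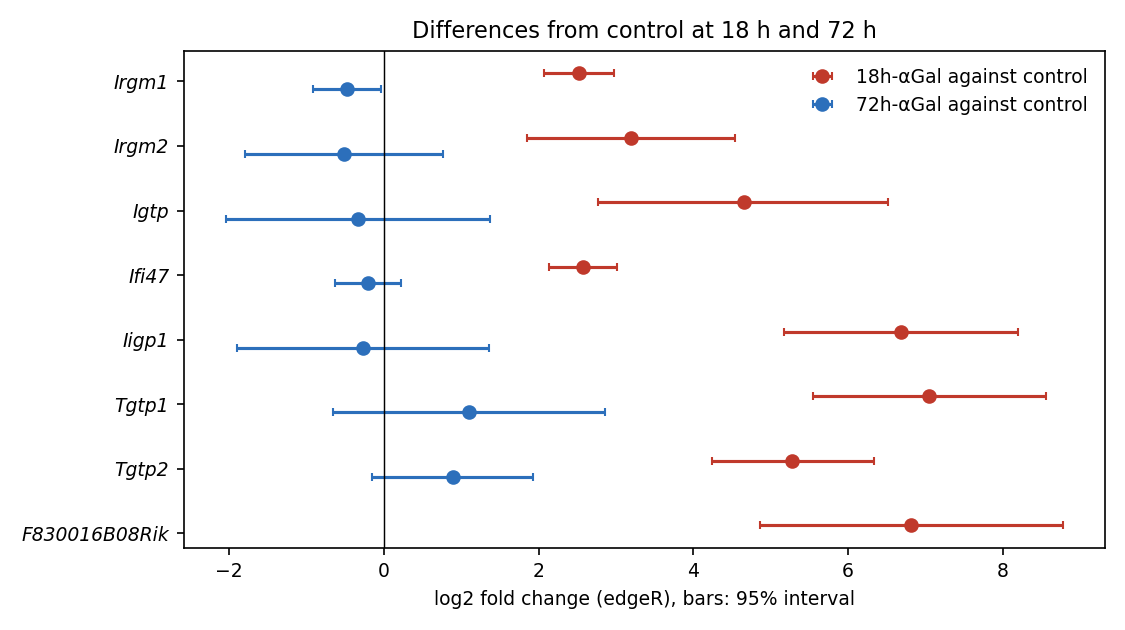
Fitted log2 fold changes from control at 18 h (red) and 72 h (blue) for the 8 genes, with 95% intervals from edgeR; F830016B08Rik has no value at 72 h because it was at or near 0 in both groups. The red points run from 2.52 to 7.05, and the blue points run from -0.52 to 1.10, the highest being Tgtp1, which rests on few reads in both groups.

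Set against 18h-αGal mice, all 8 genes were lower at 72 h, and edgeR called all 8 lower, a call that 6.04% of all genes received. The fitted log2 differences were -3.0 ± 0.21 for Irgm1, -3.71 ± 0.57 for Irgm2, -4.98 ± 0.78 for Igtp, -2.78 ± 0.21 for Ifi47, -6.95 ± 0.65 for Iigp1, -5.95 ± 0.63 for Tgtp1 and -4.40 ± 0.44 for Tgtp2. This comparison shares the 18h-αGal libraries with the one that chose the genes, so its direction carries no separate support.

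Other IRG genes, none of them among the 8, were followed from a list of 12, of which 9 were in the count table and 8 were tested. At 18 h, 3 of the 8 rose and 0 fell, against 3.27% and 2.69% of all genes. They were Gm4841 (log2 6.69 ± 1.02, edgeR adjusted p = 0.00179), Gm12185 (4.52 ± 0.72, adjusted p = 0.0135) and Gm12250 (3.57 ± 0.51, adjusted p = 0.00546). Gm12185 stood at 24.1, 77.8 and 105 normalised counts in controls and at 1721, 1708 and 886 in 18h-αGal mice, without overlap. Gm4841 stood at 2.35, 0 and 0 in controls and at 160, 156 and 73.1 in 18h-αGal mice, so the size of its difference rests on few control reads.

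Of the remaining 5, Gm5431, 9930111J21Rik1 and 9930111J21Rik2 did not pass at 18 h, with log2 differences of 2.39 ± 0.81, 4.33 ± 1.30 and 3.69 ± 1.31 and edgeR adjusted p of 0.157, 0.0703 and 0.114. Each fell between 18 h and 72 h (edgeR adjusted p = 0.0489, 0.0108 and 0.0209), as did the 3 genes that rose. Gm4841, 9930111J21Rik1 and 9930111J21Rik2 were near 0 outside the 18h-αGal group and passed the filter on low counts only through it. Their part in the counts of calls at 18 h and from 18 h to 72 h is therefore a description and no support. Irgq, an IRG-like gene whose product lacks the usual GTPase function, stood at 741, 610 and 739 in controls and 791, 899 and 727 at 18 h (log2 0.22 ± 0.15, edgeR adjusted p = 0.457). Iigp1c stood at 0, 0 and 16.64 in controls and at 50.4, 71.9 and 16.56 at 18 h, with overlap. Its difference did not pass (log2 3.49 ± 1.57, edgeR adjusted p = 0.221), and it too passed the filter only through the 18h-αGal group. At 72 h against control, 0 of the 8 other IRG genes were called, and 1 had an unadjusted p under 0.05. That gene was 9930111J21Rik1 (edgeR, unadjusted p = 0.0471), with mean normalised counts of 1.57 in controls and 0 at 72 h. Gm4841 (0.783 and 1.47) and 9930111J21Rik2 (3.64 and 0.491) were also near 0 in both groups. The count of calls at 72 h therefore says little about these genes.

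The pathway that induces IRG genes was read from 19 genes of IFN-γ signalling, all tested. At 18 h, 6 rose and 1 fell, against 3.27% and 2.69% of all genes, and the median log2 difference was 0.36. The receptor chains and their kinases were not called. Ifngr1 differed by -0.16 ± 0.11 (edgeR adjusted p = 0.454), Ifngr2 by -0.54 ± 0.18 (adjusted p = 0.0999), Jak1 by 0.01 ± 0.11 (adjusted p = 0.983) and Jak2 by 0.25 ± 0.13 (adjusted p = 0.316). Downstream of them, Irf1, a transcription factor that binds ISRE, rose by 0.76 ± 0.16 (edgeR adjusted p = 0.0135).

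Genes of feedback differed in both directions. Usp18, a brake on type I interferon receptors, rose by a log2 difference of 2.35 ± 0.56 (edgeR adjusted p = 0.0316). Socs1, an inhibitor of Janus kinases, rose by 1.60 ± 0.22 (edgeR adjusted p = 0.00105). Socs3, also a feedback gene, was the 1 gene of the list that fell (-1.07 ± 0.25, edgeR adjusted p = 0.0238). The transcription factor genes Batf2 (1.96 ± 0.40) and Irf8 (1.39 ± 0.20) rose at edgeR adjusted p of 0.0238 and 0.00204. At 72 h against control, 0 of the 19 were called by edgeR, and 0 had an unadjusted p under 0.05.

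**Figure D5:**
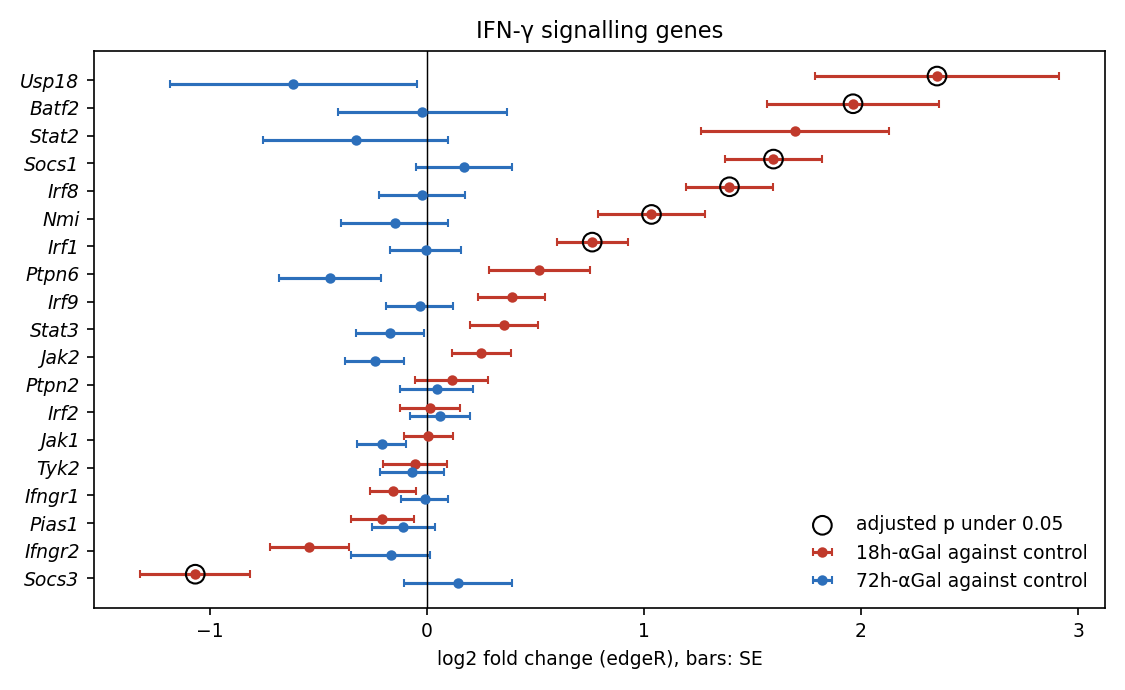
Fitted log2 fold changes of 19 IFN-γ signalling genes from control at 18 h (red) and 72 h (blue), with SE bars from edgeR and black rings at an adjusted p under 0.05. At 18 h, 6 genes are ringed on the right and 1 (Socs3) on the left; at 72 h none is ringed.

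Loading of IRG effectors onto vacuoles uses autophagy conjugation proteins and ubiquitin adaptors, and 18 such genes were tested. Their median log2 difference at 18 h was 0.01, with a range of -0.36 to 1.30. EdgeR called 0 of 18, and 6 had an unadjusted p under 0.05, as did 20.8% of all genes. At 72 h against control 0 were called, and 1 had an unadjusted p under 0.05. Without control mouse 3, 1 gene of the list was called, Rnf213, which encodes a ubiquitin ligase.

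Genes within 100 kb of a member were read to see whether the difference at 18 h was shared along the clusters. Of 31 such genes in the table, 25 were tested and 4 were called, all higher, against 5.96% of all genes in either direction. Of these, 3 were other IRG genes, namely Gm12250, Gm12185 and Gm4841, the last of which passed the filter only through the 18h-αGal libraries. Among the 18 neighbours outside the IRG lists, 1 was called, BC023105 (log2 8.74 ± 1.68, edgeR adjusted p = 0.00960), which is annotated as a transcribed processed pseudogene on chromosome 18. Genes of other families in the clusters, such as Trim41 (0.08 ± 0.16) and Rack1 (-0.22 ± 0.13), were not called (edgeR adjusted p = 0.846 and 0.395).

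The genes whose levels were most like those of the IRG family over the 9 libraries were found by Pearson correlation with the mean profile of the members. Among 11141 candidate genes with a mean count of at least 100, the 10 highest included Lgals3bp (0.992), Tram1 (0.991), Gbp7 (0.990), Nudt5 (0.990), Il18bp (0.989), Sppl2a (0.989), an unnamed gene with the identifier ENSMUSG00000118051 (0.988), Pgk1 (0.988) and Ctsz (0.985). The members themselves had values of 0.953 to 0.995. Because each member is part of the profile, these values are high by construction and cannot be set against those of other genes. The 9 points are shared by all genes and fall into a high and a low set of libraries, so genes that are higher at 18 h can score highly, and 367 candidates reached 0.9. The size of the difference was not matched by this measure, since Tram1 differed by 0.48 and Il18bp by 2.50 on the log2 scale at 18 h.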

How the data were processed

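Bulk RNA sequencing covered 9 mice in 3 groups of 3. The authors prepared strand-directional, ribosomal RNA-depleted libraries read at 100 bp. The submitters' processing notes name HISAT2, featureCounts of Subread and DESeq2 1.42.0. The strand setting of the counting and the handling of reads shared by several genes were not given in the sources used here, so genes that overlap, antisense genes and near-identical genes may share reads. The notes name GRCm38 and the study's methods name GRCm39. The authors deposited raw counts per gene, and a normalised signal that equalled the count divided by 1 size factor per library (largest relative difference from factors recomputed here 5.89e-15).

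Of 29288 Ensembl identifiers, 28480 matched GENCODE vM39 (98.4% of counts), from which symbols, positions and exon lengths came. Counts were tested with edgeR 4.0.16 in R 4.3.3 (filterByExpr, TMM, robust quasi-likelihood fit of 3 group means over 9 libraries), with Benjamini-Hochberg adjustment over 18933 genes and calls at an adjusted p under 0.05. The groups share this estimate of the spread, with a common dispersion of 0.123. The code was tested on simulated data. RPKM used library totals and the union of annotated exons. Totals of 8887861 to 32722293 counts set the precision, and the floor of 3 counts per library covers counting error only. Separate mice are replicates.

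The members and gene lists were chosen with earlier results of these data known. All 8 members were named. Other IRG genes were named where called in any contrast, along with Irgq and Iigp1c. Of the IFN-γ signalling genes, Ifngr1, Ifngr2, Jak1, Jak2 and Irf1 were named, with the 4 others called at 18 h that had the largest difference. The most alike genes and the called neighbours were also named. 1 gene of the signalling list, which was also among the 10 most alike, is not reported here and was left out of the counts of that list. Trim41, Rack1, Socs3, Iigp1c, Gbp6, Gbp10, Gbp11 and the named cell markers other than Epcam were chosen after their values were seen. Alternatives were DESeq2 1.42.0, limma 3.58.1 on log2(signal + 1), other scalings, filters, lengths and calls, the replicate number as a block, the sum of Tgtp1 and Tgtp2, and leaving out each library. Promoter sequences came from RefSeq (GRCm38.p6) and coding sequences from GENCODE. Promoters of Iigp1 and F830016B08Rik were not analysed here.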

Additional observations from a re-analysis of the deposited data

How the results depend on the processing

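In 450 recomputed log2 differences of members, 423 kept direction and call, 21 lost the call and 6 turned direction. Members called at 18 h numbered 6 to 8, since Igtp lost its call under 8 alternatives and Irgm2 under 7. These included the fit of the 6 libraries compared, the fits without control mouse 1, without each 18h-αGal mouse and without 72h-αGal mouse 1 or 2, and, for Igtp, the replicate block. Members called at 72 h against 18 h also numbered 6 to 8, since Igtp (-4.79 to -5.09) and Irgm2 (-3.61 to -3.84) lost the call without 72h-αGal mouse 1, 2 or 3. At 72 h against control 0 members were called under every alternative. The directions at 72 h that turned were Igtp with limma on the deposited values (0.061), Igtp (0.78), Irgm2 (0.34) and Ifi47 (0.010) without control mouse 3, Iigp1 without 72h-αGal mouse 2 (0.15) and Tgtp1 without 72h-αGal mouse 3 (-0.19). With a library left out, these ranged from -0.81 to 0.78 for Igtp, -0.89 to 0.34 for Irgm2, -0.42 to 0.010 for Ifi47, -0.68 to 0.15 for Iigp1 and -0.19 to 1.86 for Tgtp1. F830016B08Rik gave no value at 72 h without control mouse 2, where all libraries were at 0, and with only the 6 libraries compared, where the filter removed it and Tgtp1. The cause was not tested.

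Genes called at 18 h numbered 1128, against 1720 with DESeq2, 593 with only the 6 libraries compared, 426 with an absolute log2 difference of at least 1, and 432 to 1556 with a library left out. At 72 h the 5 calls became 31 with DESeq2, 13 with no filter, 3 without robust estimation, 1 with the replicate block and 0 to 20 with a library left out. From 18 h to 72 h, 1936 calls became 682 with an absolute log2 difference of at least 1, and 831 to 2593 with a library left out. Other IRG genes called at 18 h became 6 with DESeq2 and 2 to 5 with a library left out (5 without control mouse 3). IFN-γ signalling genes called, 7 in all, became 3 to 9 (3 without control mouse 1 or 18h-αGal mouse 2, 4 without control mouse 2 or 18h-αGal mouse 1). Loading genes called became 0 to 1, the 1 being Rnf213 without control mouse 3. The median member difference at 18 h ranged from 4.59 to 5.78 with a library left out. With the longest transcript as length, the summed RPKM was 38.3 in controls, 409 at 18 h and 30.6 at 72 h. With library totals in place of TMM, the share of higher calls moved from 40.9% to 50.2% between 18 h and 72 h, and the median of all genes to 0.12.

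Replicate numbers did not pair the mice (correlations of deviations -0.149 to 0.114, and 3 of 9 libraries correlated best with their own number). With the replicate block, 7 members were called at 18 h and 8 from 18 h to 72 h. Low counts limit Tgtp1 and F830016B08Rik, which had few or no reads outside the 18h-αGal group, the deepest library included.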

Other observations

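Other interferon-inducible GTPases outside the IRG family were measured in the same libraries. Of 10 tested guanylate-binding protein genes, which encode larger GTPases that also act on pathogen vacuoles, 7 rose at 18 h by edgeR at an adjusted p under 0.05 and 0 fell, against 3.27% and 2.69% of all genes. Their median log2 difference was 4.34, with a range of 1.65 to 7.56. The upper end was Gbp11 (7.56 ± 2.15, edgeR adjusted p = 0.0580), which was at 0 in every control, so that no fold can be given for it. In 10 of 10 the 18h-αGal mice did not overlap controls, as did 11.5% of all genes in the higher direction. Gbp10 and Gbp11 passed the filter on low counts only through the 18h-αGal libraries. Their part in the counts of calls and of non-overlap at 18 h is therefore no support. At 72 h against control 0 of 10 were called, and 1 had an unadjusted p under 0.05. That gene was Gbp6, at 4.70, 15.2 and 9.51 normalised counts in controls and 17.4, 17.1 and 39.7 at 72 h, without overlap. Its log2 difference was 1.43 ± 0.48 (edgeR, unadjusted p = 0.0101, adjusted p = 0.810). The median of the 10 at 72 h was 0.62, with 7 positive and 3 negative differences. Gbp11 (mean normalised counts of 0 in controls and 0.981 at 72 h) and Gbp10 (1.22 and 1.75) were near 0 in both groups. The count at 72 h therefore says little about them.

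Of 5 tested dynamin-like and very large interferon-inducible GTPase genes, 1 rose at 18 h, Mx1, an antiviral gene best known as a target of type I and type III interferon. It stood at 28.8, 26.6 and 92.7 normalised counts in controls and at 177, 232 and 142 in 18h-αGal mice (log2 1.99 ± 0.50, edgeR adjusted p = 0.0288). Gvin1 stood at 335, 314 and 207 in controls, 194, 158 and 119 at 18 h and 416, 320 and 466 at 72 h. Its difference at 18 h did not pass (-0.86 ± 0.26, edgeR adjusted p = 0.0687), and it rose from 18 h to 72 h by 1.35 ± 0.27 (edgeR adjusted p = 0.00554). The named genes of this paragraph were chosen after their values were seen.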
